A study of Mus musculus with 24 samples.

Results

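Circulating microRNA after 3 days of toosendanin dosing was set against vehicle at the same day, over 4 arrays per group, 8 of the 24 arrays of the series. Both groups were chosen by their sample titles and by no measured value. In the TSN group, mice received 80 mg/kg of toosendanin (TSN) for 3 days; this limonoid from Melia trees is hepatotoxic. In the control group vehicle was given for the same time. All animals were BALB/c males. Serum was taken 24 hours after the last dose and exosomal RNA was labelled with Cy3 for a one-colour mouse miRNA array holding 1881 miRNAs. Whether each sample came from 1 mouse or several is not stated, and the p-values therefore speak of spread among samples, some of which may be technical. The series title links miR-106b-5p and vimentin to adaptation of the liver to a drug's injury, and the comparison asks which exosomal miRNAs differ early in dosing.

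MicroRNAs are short RNAs that guide Argonaute proteins to messenger RNAs, mainly through pairing of their seed, the bases 2 to 8 of the mature strand, and so lower the output of their targets. Families with a common seed share most predicted targets. Part of the miRNA in serum is enclosed in vesicles such as exosomes. Blood cells, endothelium and liver are known sources of it, and hepatocyte miRNAs such as miR-122-5p are used as serum markers of liver injury.

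Sequences are given here for the seed families on which the comparison turns, so that members with like and unlike behaviour can be set side by side, and for 4 miRNAs with large changes. They are from RefSeq, on GRCm38.p6, written 5′ to 3′ with the seed in capitals. The first 5 share the seed of miR-106b-5p.
miR-106b-5p: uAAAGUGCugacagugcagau (chr5:138165787-138165807, minus strand)
miR-17-5p: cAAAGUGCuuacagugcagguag (chr14:115043684-115043706, plus strand)
miR-20a-5p: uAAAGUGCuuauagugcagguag (chr14:115044183-115044205, plus strand)
miR-20b-5p: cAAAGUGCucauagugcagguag (chrX:52742159-52742181, minus strand)
miR-93-5p: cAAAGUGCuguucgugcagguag (chr5:138165574-138165596, minus strand)
The next are from the let-7 family, with its highest members, let-7a-5p, and both members that were not measured on control arrays.
let-7d-5p: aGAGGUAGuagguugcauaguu (chr13:48536078-48536099, minus strand)
let-7i-5p: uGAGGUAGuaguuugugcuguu (chr10:122985698-122985719, minus strand)
let-7a-5p: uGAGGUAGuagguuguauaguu (chr13:48538239-48538260, minus strand)
let-7e-5p: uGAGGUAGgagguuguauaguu (chr17:17830366-17830387, plus strand)
miR-98-5p: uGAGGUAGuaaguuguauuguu (chrX:151913229-151913250, plus strand)
Counted from the 5′ end, let-7d-5p differs from let-7a-5p at 2 of 22 positions, let-7i-5p at 4, let-7e-5p at 1 and miR-98-5p at 2, so that array probes for them target near-identical RNAs, and how far their signals mix was not tested. Families in which each tested member was called higher, and 1 in which some were, follow.
miR-26a-5p: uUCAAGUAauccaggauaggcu (chr10:126995543-126995564, plus strand and chr9:119031811-119031832, plus strand)
miR-26b-5p: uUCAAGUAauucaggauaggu (chr1:74394324-74394344, plus strand)
miR-103-3p: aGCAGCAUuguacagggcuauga (chr11:35782447-35782469, plus strand and chr2:131288103-131288125, plus strand)
miR-107-3p: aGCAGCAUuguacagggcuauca (chr19:34820700-34820722, minus strand)
miR-148a-3p: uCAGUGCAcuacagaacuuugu (chr6:51269829-51269850, minus strand)
miR-148b-3p: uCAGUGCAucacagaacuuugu (chr15:103285185-103285206, plus strand)
miR-152-3p: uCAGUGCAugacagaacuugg (chr11:96850439-96850459, plus strand)
miR-29a-3p: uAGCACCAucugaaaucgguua (chr6:31062673-31062694, minus strand)
miR-29b-3p: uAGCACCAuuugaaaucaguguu (chr1:195037091-195037113, plus strand and chr6:31063025-31063047, minus strand)
miR-29c-3p: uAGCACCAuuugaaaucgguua (chr1:195037600-195037621, plus strand)
miR-130b-3p: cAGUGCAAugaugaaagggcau (chr16:17124071-17124092, minus strand)
miR-130a-3p: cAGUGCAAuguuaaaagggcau (chr2:84741116-84741137, minus strand)
miR-301a-3p: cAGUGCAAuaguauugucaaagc (chr11:87113054-87113076, plus strand)
Between miR-103-3p and miR-107-3p 1 of 23 positions differs, and between miR-29a-3p and miR-29c-3p 1 of 22. The last 4 are miRNAs outside these families, of which miR-6354 and miR-5100 had the largest rises measured on all 8 arrays and miR-882 and miR-883a-5p large falls.
miR-6354: uGCCCUGGggaucaggucucu (chr1:169019041-169019061, minus strand)
miR-5100: uCGAAUCCcagcggugccucu (chr11:60728698-60728718, plus strand)
miR-882: aGGAGAGAguuagcgcauuagu (chr12:109682207-109682228, plus strand)
miR-883a-5p: uGCUGAGAgaaguagcaguuac (chrX:66780803-66780824, minus strand)

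The TSN arrays were far brighter than the control arrays. On average 434 miRNAs lay well above background on a TSN array and 236 on a control array, and the 75th percentile of unscaled signal averaged 1171 intensity units on TSN arrays and 165.5 on control arrays, 7.23 times as much as a ratio of geometric means. Probes for RNAs added at labelling were 4.45 times brighter on TSN arrays, and probes for RNAs added at hybridisation 1.27 times. The groups did not overlap in any of these measures (exact two-sided permutation p = 0.0286, the smallest that 8 arrays allow; adjusted p = 0.0357 over 5 measures). The 4 TSN arrays lay on 1 slide and the 4 control arrays on another, and arm cannot be told apart from slide. Unless stated, values are log2 of the signal divided by the array's own 75th percentile, so each rise or fall is relative to the bright probes of the same array and not an amount per volume of serum. Replicates correlated at 0.979 to 0.989 across miRNAs among TSN arrays and at 0.982 to 0.991 among control arrays. The red cell markers miR-451a, miR-144-3p and miR-486a-5p were well above background on all 8 arrays. So were miR-142a-3p of white cells, miR-223-3p of white cells and platelets and miR-126a-3p of endothelium and platelets. Other markers of these lists were not: miR-150-5p of white cells was above on 4 TSN and 2 control arrays. The endothelial miR-126a-5p was above on 4 TSN arrays and the platelet miR-191-5p on 3, both on no control array. Of the muscle markers, miR-1a-3p was above on 4 TSN arrays and miR-133a-3p on 3, both on no control array, and miR-206-3p on none. Of the hepatocyte markers, miR-192-5p was measured on all 8 arrays, miR-122-5p on 4 TSN and 3 control arrays and miR-194-5p on none. The epithelial markers miR-200a-3p, miR-200b-3p and miR-141-3p, the neuronal markers miR-124-3p and miR-9-5p, and the pancreatic markers miR-216a-5p, miR-217-5p and miR-375-3p were well above background on none. No miRNA here marks exosomes, so that part of the label was not checked.

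Of 444 miRNAs tested, 129 were called higher in TSN serum (29.1%) and 82 lower (18.5%), with limma and Benjamini-Hochberg adjustment at 0.05; 229 had an unadjusted p under 0.05. Because the control arrays were dim, the size of a difference is best read on the 183 miRNAs that were well above background on all 8 arrays. Of these, 48 were higher (26.2%) and 51 lower (27.9%), making 99 (54.1%), and in 90 (49.2%) the values of the 2 groups did not overlap. The remaining higher calls include 48 miRNAs that were well above background on no control array. The median change was 0.10 over all tested miRNAs and -0.03 over the 183. Leaving out 1 array at a time gave 114 to 129 higher and 75 to 88 lower calls. The balance of higher and lower depends on the scaling: without any, 386 were higher and 2 lower, scaled on the labelling spike-ins 245 were higher and 39 lower, and with normexp background correction 23 were higher and 351 lower (55 and 286 relative to the median miRNA). On simulated data, calls made in this way included more false ones than the threshold of 0.05 allows, since the scaling moved unchanged miRNAs together. Calls read relative to the median miRNA did not. The simulated rises and falls were equal in number and size, so centring on the median was right by construction. Simulated signals were also raised and the floor lowered. The simulation therefore cannot tell whether the median reading holds on these dim control arrays. Read relative to the median of all tested miRNAs, a setting added after the data were seen, 112 were higher, all among the 129, and 104 lower, among them all 82.

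miR-106b-5p, a member of the miR-17 seed family that is known to promote the cell cycle by repressing the inhibitor p21, was higher in TSN serum. Its scaled values were 0.45, -0.04, 0.10 and 0.58 on the TSN arrays, against -1.07, -0.97, -0.85 and -1.49 on the control arrays. All 4 TSN arrays lay above all 4 control arrays. The change was 1.37 ± 0.189, adjusted p = 5.26e-06 (log2, SE, limma), and it stayed called and positive in 25 alternative settings (those that moved the median miRNA by over 0.1 read relative to it), between 1.24 and 1.50. The unscaled intensities were 2094, 719, 1202 and 1930 on TSN arrays and 56.5, 53.9, 122 and 77.2 on control arrays.

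Mir106b lies at chr5:138165737-138165818 with Mir93 (chr5:138165523-138165610) and Mir25 (chr5:138165321-138165404) in the span of Mcm7 (chr5:138164583-138172111, GRCm38.p6), a DNA replication licensing gene. Neither neighbour passed the test at day 3. miR-93-5p, with the same seed, had scaled values of -1.06, -1.58, -1.17 and -0.81 on TSN arrays and -1.10, -0.97, -0.89 and -1.43 on control arrays, which overlapped, and a change of -0.06 ± 0.181, adjusted p = 0.872. miR-25-3p, which has the seed of miR-92a-3p, changed by 0.05 (adjusted p = 0.923). In the paralogous cluster on chromosome 14, miR-20a-5p rose by 0.68 ± 0.146, adjusted p = 0.00064, and miR-20b-5p, of another cluster on the X chromosome, by 0.63 ± 0.146, adjusted p = 0.00121. No control array had miR-17-5p or miR-18a-5p well above background, and their differences are lower bounds: at least 1.58-fold higher for miR-17-5p (adjusted p = 1.08e-07) and at least 1.31-fold for miR-18a-5p (adjusted p = 0.000118). Here and beside later bounds, the adjusted p is from limma on scaled values set no lower than a floor, and does not test the bound. miR-92a-3p passed narrowly (0.44 ± 0.18, adjusted p = 0.0491). miR-19a-3p fell by 0.56 (SE 0.202, adjusted p = 0.0271) and miR-19b-3p did not pass (-0.35 ± 0.193, adjusted p = 0.155). Over the whole miR-17 superfamily 6 of 10 tested members were higher and 1 lower, with a median of 0.54 beside 0.10 for all tested miRNAs, of which 29.1% were higher and 18.5% lower. Of these 6, miR-17-5p turned to -0.67 with normexp background correction, relative to the median miRNA, and to -1.56 with the total gene signal. miR-18a-5p and miR-92a-3p were not read in the alternatives. On the 8 members measured on all 8 arrays the counts were 4 and 1, beside 26.2% higher and 27.9% lower of the 183.

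**Figure D1:**
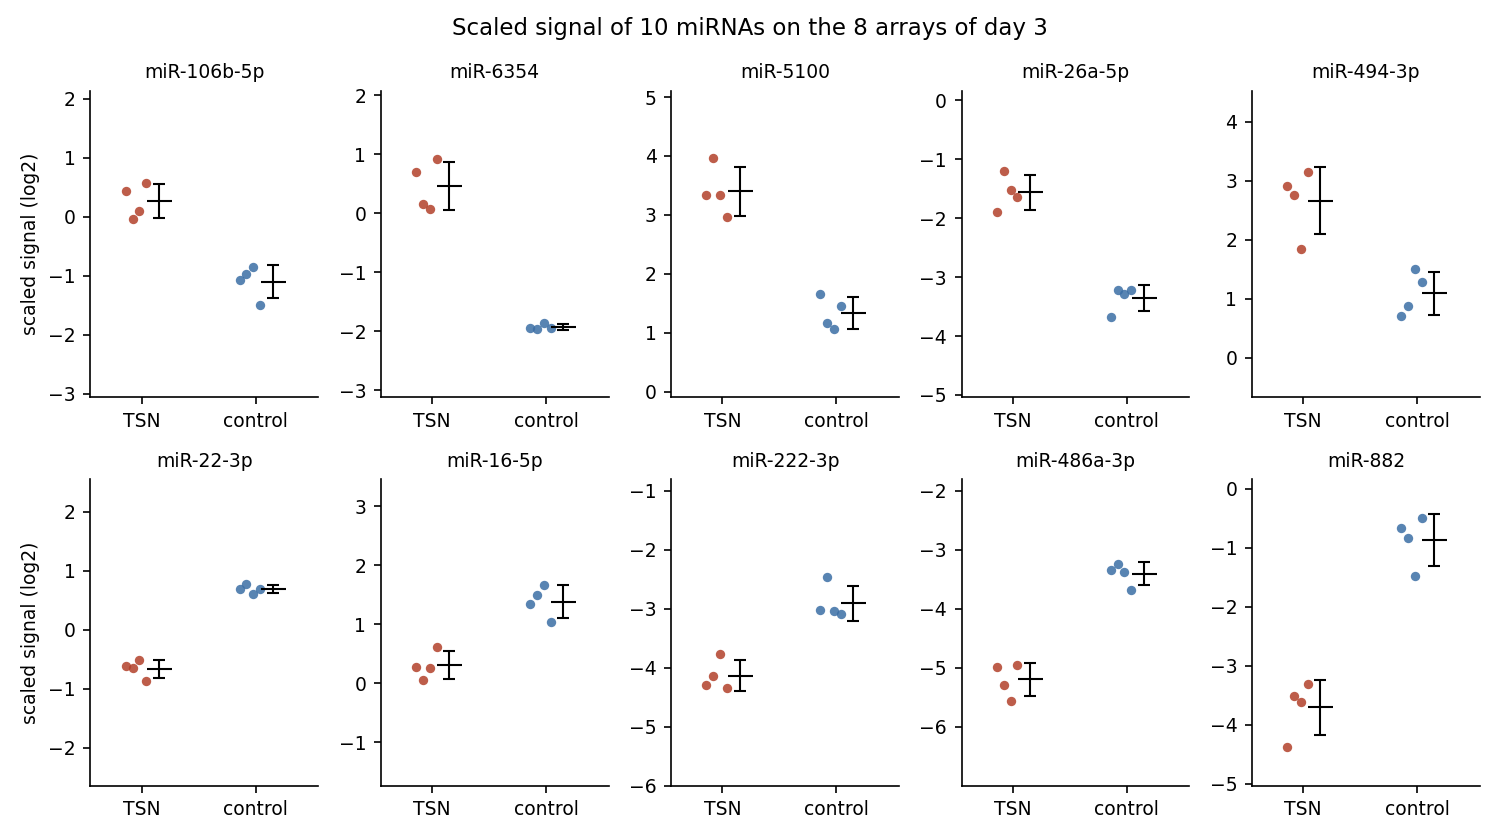
Scaled signal (log2, vertical axis) of 10 miRNAs on the 4 TSN and 4 control arrays of day 3; each point is 1 array and the bar is the mean with its SD, and every panel spans the same number of log2 units. In each panel the 2 groups do not overlap, with the first 5 miRNAs higher and the last 5 lower on TSN arrays.

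miR-6354 and miR-5100 had the largest rises measured on all 8 arrays; no role is stated here for either. miR-6354 had values of 0.70, 0.16, 0.07 and 0.92 on TSN arrays and -1.94, -1.96, -1.86 and -1.95 on control arrays, a change of 2.39 ± 0.217, adjusted p = 5.15e-08. miR-5100 had 3.33, 3.96, 3.34 and 2.96 on TSN arrays and 1.66, 1.18, 1.06 and 1.45 on control arrays, a change of 2.06 ± 0.186, adjusted p = 5.15e-08. miR-494-3p, from the imprinted Dlk1-Dio3 domain on chromosome 12, had 2.91, 2.75, 1.84 and 3.15 on TSN arrays and 0.71, 0.88, 1.50 and 1.27 on control arrays, and rose by 1.57 ± 0.291, adjusted p = 0.000149. In all 3 the groups were apart, and in TSN replicate 3 miR-494-3p lay closest to the controls. The others among the 10 highest were miR-26a-5p and miR-106b-5p, miR-3082-5p (1.38 ± 0.46, adjusted p = 0.0179), miR-6238 (1.38 ± 0.209, adjusted p = 1.76e-05), miR-466i-5p (1.35 ± 0.432, adjusted p = 0.0141), miR-6931-5p (1.29 ± 0.284, adjusted p = 0.000798) and miR-574-5p (1.26 ± 0.416, adjusted p = 0.0167). miR-466i-5p comes from the repeated miRNA array in an intron of Sfmbt2. Of that array's 8 tested miRNAs 4 were called higher and none lower, beside 29.1% and 18.5% of all tested miRNAs, but 1 alone was measured on all 8 arrays.

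Among miRNAs of known biology measured on all 8 arrays, miR-22-3p, miR-16-5p, miR-222-3p, miR-140-5p and both arms of miR-486a were lower in TSN serum. miR-22-3p, which is abundant in liver and heart, had -0.62, -0.65, -0.51 and -0.87 on TSN arrays and 0.69, 0.79, 0.61 and 0.70 on control arrays (-1.36 ± 0.188, adjusted p = 5.26e-06). miR-222-3p, which represses the cell cycle inhibitor p27 together with miR-221-3p, had -4.29, -4.15, -3.76 and -4.34 on TSN arrays and -3.03, -2.47, -3.04 and -3.10 on control arrays (-1.23 ± 0.157, adjusted p = 2.19e-06). miR-221-3p, with the same seed and from the same X-linked cluster, did not pass (-0.43 ± 0.179, adjusted p = 0.0531). miR-140-5p, best known from cartilage, fell by 1.16 (SE 0.139, adjusted p = 9.72e-07), and its other arm miR-140-3p by 0.74 (SE 0.1, adjusted p = 4.11e-06). The mirtron miR-1224-5p, made by splicing of a short intron, fell by 1.13 (SE 0.125, adjusted p = 4.7e-07); in the authors' processed values it was higher by 0.56, the 1 miRNA of the 183 called in opposite directions by both.

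The 10 largest falls measured on all 8 arrays were of miRNAs whose unscaled signal did not follow the brightness of the TSN arrays. In 8 of the 10 the unscaled intensities of the groups overlapped, and in miR-7080-3p and miR-3620-3p those of the TSN arrays lay below all controls. miR-882 had unscaled intensities of 74.3, 64.3, 91.6 and 130 on TSN arrays and 74.9, 59.4, 78.8 and 155 on control arrays. Its scaled values were -4.37, -3.52, -3.61 and -3.31 on TSN arrays and -0.66, -0.83, -1.48 and -0.49 on control arrays, a change of -2.84 ± 0.301, adjusted p = 2.76e-07. For miR-7080-3p (-3.26), miR-3620-3p (-3.09), miR-883a-5p (-3.05), miR-300-5p (-2.95) and miR-6957-5p (-2.84) the unscaled log2 differences were -0.60, -0.51, -0.19, -0.17 and 0.02. For miR-7084-5p (-2.43), miR-3099-3p (-2.42), miR-6937-5p (-2.38) and miR-6978-5p (-2.31) they were 0.42, 0.43, 0.48 and 0.54. Each call passed in limma, with adjusted p between 6.83e-08 (miR-6957-5p) and 1.8e-05 (miR-3620-3p). Over the 51 lower calls measured on all 8 arrays, the unscaled difference ran from -0.60 to 2.35 with a median of 1.63, and it was below 0 in 4; the 48 higher calls ran from 3.28 to 5.24. The scaling factors of the groups differ by 2.85 on average. On TSN replicates 1 and 4 miR-7080-3p and miR-3620-3p lay at the floor of the scaled values, -6.21, and miR-300-5p lay there on 1 array, so the scaled falls of these 3 are clipped.

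**Figure D2:**
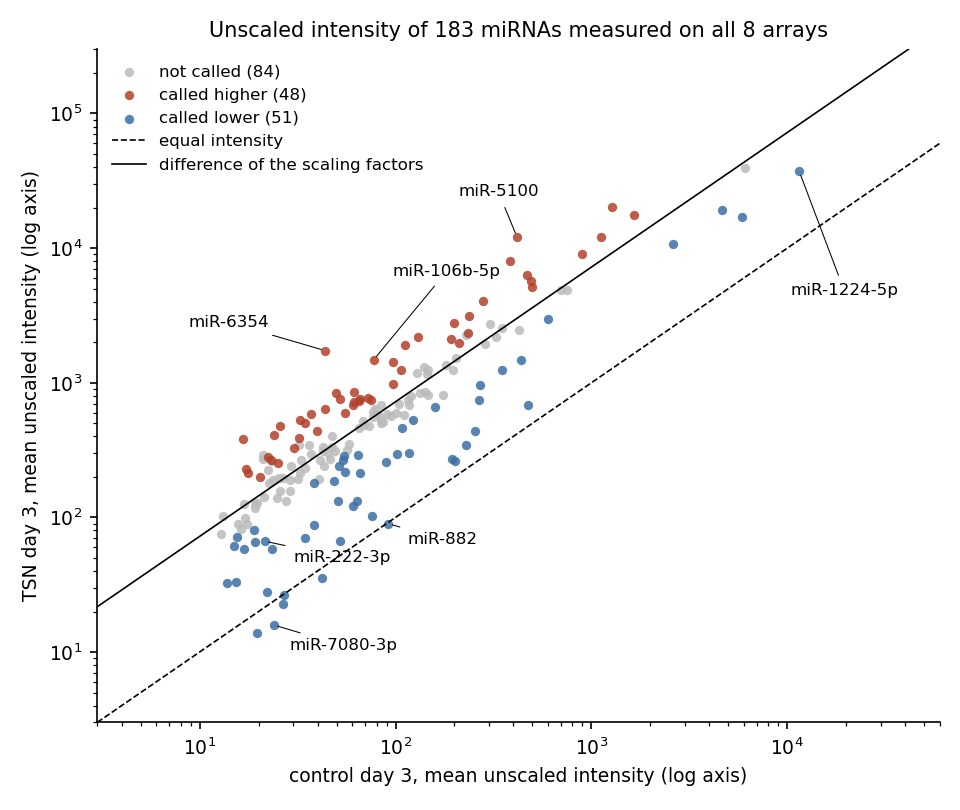
Mean unscaled intensity on the 4 TSN arrays (vertical, log axis) against that on the 4 control arrays (horizontal, log axis) for the 183 miRNAs measured on all 8 arrays. The solid line is the mean log2 difference of the scaling factors, 2.85, and the dashed line equal intensity; higher calls lie above the solid line, and miR-882 and miR-7080-3p lie near or below the dashed one.

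Some miRNAs were detected in 1 group alone, and for these the difference is a bound. A bound sets the detected group's mean against that of the other group, where each array counts with its lowest measurable signal or, if higher, with what the probe itself read. Each bound holds under the scaling and background treatment used here alone, and changes of sign under other settings are listed at the end. The adjusted p beside a bound is from limma on the floored scaled values. The bound itself was not tested. miR-542-5p was at least 2.48-fold higher in TSN serum (adjusted p = 4.73e-07), miR-1198-5p at least 2-fold (adjusted p = 9.01e-07) and miR-6402 at least 1.94-fold (adjusted p = 3.96e-06). With normexp background correction, relative to the median miRNA, these turned to -0.22, -0.46 and -0.44. In the other direction, miR-7085-3p was at least 7.59-fold lower in TSN serum (adjusted p = 0.000793), miR-7241-5p at least 6.59-fold, miR-3475-5p at least 6.38-fold, miR-7055-3p at least 6.15-fold and miR-702-3p at least 6.04-fold (adjusted p from 0.000948 to 0.0014 for these 4). The mean unscaled intensities of these 5 were 4 to 8 units on TSN arrays and 9 to 11 on control arrays. Of them, miR-3475-5p turned to 2.62 with Agilent's total gene signal. In all, 103 tested miRNAs were well above background on 4 TSN arrays and no control array and 5 on 4 control arrays and no TSN array. Of the 48 higher calls with no control array above background, 15 had a bound over 1.

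The let-7 family, which promotes differentiation and represses Lin28 and Ras genes, had 8 of 9 tested members called higher, beside 29.1% of all tested miRNAs, with a median of 0.80. Of the 7 measured on all 8 arrays 7 were called, beside 26.2% of the 183. let-7d-5p had -1.35, -1.17, -1.22 and -1.10 on TSN arrays and -2.40, -2.25, -2.07 and -2.41 on control arrays (1.07 ± 0.172, adjusted p = 3.27e-05), and let-7i-5p had 0.15, 0.18, 0.38 and 0.39 on TSN arrays and -0.73, -0.58, -0.68 and -0.97 on control arrays (1.02 ± 0.15, adjusted p = 1.15e-05). In both the groups were apart. let-7g-5p (0.80 ± 0.144), let-7b-5p (0.64 ± 0.151), let-7c-5p (0.82 ± 0.219), let-7f-5p (0.82 ± 0.256) and let-7a-5p (0.73 ± 0.24) followed, with adjusted p from 0.000117 to 0.0167. let-7e-5p (adjusted p = 0.0316) and miR-98-5p (adjusted p = 0.371, not called) were above background on no control array, so no size is given for them. The count depends on the scaling: relative to the median miRNA, 4 were higher and 2 lower with normexp background correction, and none higher and 2 lower without scaling, although the median stayed above 0 in both. Without control replicate 1, whose let-7a-5p was -2.20 against -1.60 to -1.40 in the other controls, 6 of 9 were called, since let-7a-5p and let-7f-5p were lost. The controls of day 3 were low for these miRNAs beside the controls of day 9, which shared their slide: all 9 were higher at day 9, 4 of them past the test. Against the controls of day 9, 2 of 9 were called higher (let-7d-5p and let-7i-5p) and the median was 0.05.

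miR-26a-5p and miR-26b-5p, which repress the histone methyltransferase Ezh2, were both higher. miR-26a-5p had -1.90, -1.19, -1.52 and -1.65 on TSN arrays and -3.68, -3.23, -3.28 and -3.23 on control arrays (1.79 ± 0.235, adjusted p = 2.87e-06), and miR-26b-5p had -2.52, -2.08, -2.46 and -2.25 on TSN arrays and -3.66, -3.13, -3.11 and -3.31 on control arrays (0.97 ± 0.23, adjusted p = 0.0014). Control replicate 1 was the lowest in both. On the day 9 controls they read -2.29, -2.57, -2.67 and -2.49 for miR-26a-5p and -2.53, -2.53, -2.54 and -2.24 for miR-26b-5p. Against those controls miR-26a-5p stayed called and miR-26b-5p did not, and with normexp background correction miR-26b-5p read -0.0061 relative to the median miRNA.

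The seed group of miR-148 and miR-152, of which miR-148a-3p is enriched in liver, was called higher in all 3 members, beside 29.1% of all tested miRNAs. None of the 3 was above background on every control array. A miRNA was tested if any group had it well above background throughout, so members dim on control arrays could enter through brighter groups. The count alone therefore cannot decide whether the family rose. miR-148b-3p rose by 1.54 ± 0.154, adjusted p = 1.41e-07 and miR-148a-3p by 1.47 ± 0.185, adjusted p = 1.69e-06, each above background on 2 control arrays. miR-152-3p (adjusted p = 1.79e-06) was above background on no control array and has no size. miR-148a-3p had -2.52, -2.58, -2.03 and -2.36 on TSN arrays and -3.88, -3.94, -3.75 and -3.79 on control arrays, which do not overlap. The direction turned under normexp background correction, where miR-148b-3p read -0.19 and miR-152-3p -1.08 relative to the median miRNA.

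miR-103-3p and miR-107-3p, which lie in introns of pantothenate kinase genes and lower insulin sensitivity, rose by 1.25 ± 0.225, adjusted p = 0.000118 and 0.90 ± 0.16, adjusted p = 9.97e-05; miR-103-3p was above background on 1 control array and read -0.65 with normexp background correction, relative to the median miRNA. miR-107-3p had -0.50, -0.94, -0.22 and -0.36 on TSN arrays and -1.39, -1.25, -1.40 and -1.58 on control arrays. The miR-29 group, which represses collagens, was higher in 3 of 3 members: miR-29a-3p by 0.91 ± 0.146, adjusted p = 3.09e-05, miR-29b-3p by 0.67 ± 0.154, adjusted p = 0.00114 and miR-29c-3p by 0.47 ± 0.177, adjusted p = 0.0333. miR-29a-3p had 1.22, 0.91, 1.50 and 1.24 on TSN arrays and 0.37, 0.46, 0.17 and 0.21 on control arrays. miR-29c-3p turned to -0.05 with normexp background correction, relative to the median miRNA, and lost its call without TSN replicate 3 or 4 or control replicate 2, 3 or 4. In the stellate cell and fibrosis list, which holds these and miR-21a-5p (0.47 ± 0.187, adjusted p = 0.0443), 4 of 7 were higher and none lower, beside 29.1% and 18.5% of all tested miRNAs; the count ran down to 2 with 1 array left out, and was 2 read relative to the median miRNA. miR-21a-5p kept its call in 9 of 25 alternatives and was lost without TSN replicate 2, 3 or 4 or control replicate 1, 3 or 4. It changed sign in 3: -0.047 in the authors' values, -0.52 against the controls of day 9 and -0.18 with quantile normalization.

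In the miR-130 seed group 2 of 4 members passed, and a difference between members was not tested. The counts of this and the next groups stand beside 29.1% higher and 18.5% lower of all tested miRNAs. miR-130b-3p rose by 1.09 ± 0.173, adjusted p = 2.84e-05 and miR-130a-3p by 0.82 ± 0.197, adjusted p = 0.0017, while miR-301a-3p (0.04 ± 0.165, adjusted p = 0.931) and miR-721 (-0.40 ± 0.228, adjusted p = 0.166) did not pass. In the miR-15/16 group 1 of 6 was higher and 1 lower. miR-16-5p, abundant in red cells and known to target cyclin D1 and Bcl2, had 0.28, 0.05, 0.26 and 0.62 on TSN arrays and 1.34, 1.49, 1.67 and 1.03 on control arrays, a fall of 1.08 (SE 0.181, adjusted p = 5.35e-05). miR-322-5p rose by 0.95 ± 0.186, adjusted p = 0.000251, measured on 2 control arrays, and miR-15a-5p (0.35), miR-15b-5p (0.27), miR-195a-5p (-0.16) and miR-497a-5p (-0.32) did not pass, with adjusted p from 0.179 to 0.498. In the miR-30 family, linked to epithelial differentiation, miR-30d-5p (-0.75 ± 0.103, adjusted p = 5.26e-06), miR-30a-5p (-0.66 ± 0.133, adjusted p = 0.000335) and miR-30e-5p (-0.50 ± 0.15, adjusted p = 0.00988) were lower and miR-30c-5p (0.63 ± 0.147, adjusted p = 0.00133) higher. Thus 1 of 5 tested members was higher and 3 lower, and miR-30b-5p was not called. miR-30c-5p and miR-30e-5p were not measured on all 8 arrays. miR-30c-5p turned to -2.82 with the total gene signal, and was also negative with normexp background correction, relative to the median miRNA. Of the miR-181 group 1 of 4 was called higher (miR-181a-5p, adjusted p = 0.0439); none was above background on a control array, and this call was lost without TSN replicate 2 or 3 or any 1 control array. The miR-125 seed had miR-125b-5p (0.86 ± 0.27, adjusted p = 0.0122) and miR-6394 (1.36 ± 0.236, adjusted p = 7.68e-05) higher and miR-125a-5p (adjusted p = 0.508) not passing, and miR-125b-5p lost its call without control replicate 2. In the last seed group of 3, miR-8113 was at least 1.13-fold higher (adjusted p = 4.7e-07), miR-7057-5p was lower (-0.70 ± 0.214, adjusted p = 0.0105) and miR-8119 did not pass (0.24 ± 0.197, adjusted p = 0.358).

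**Figure D3:**
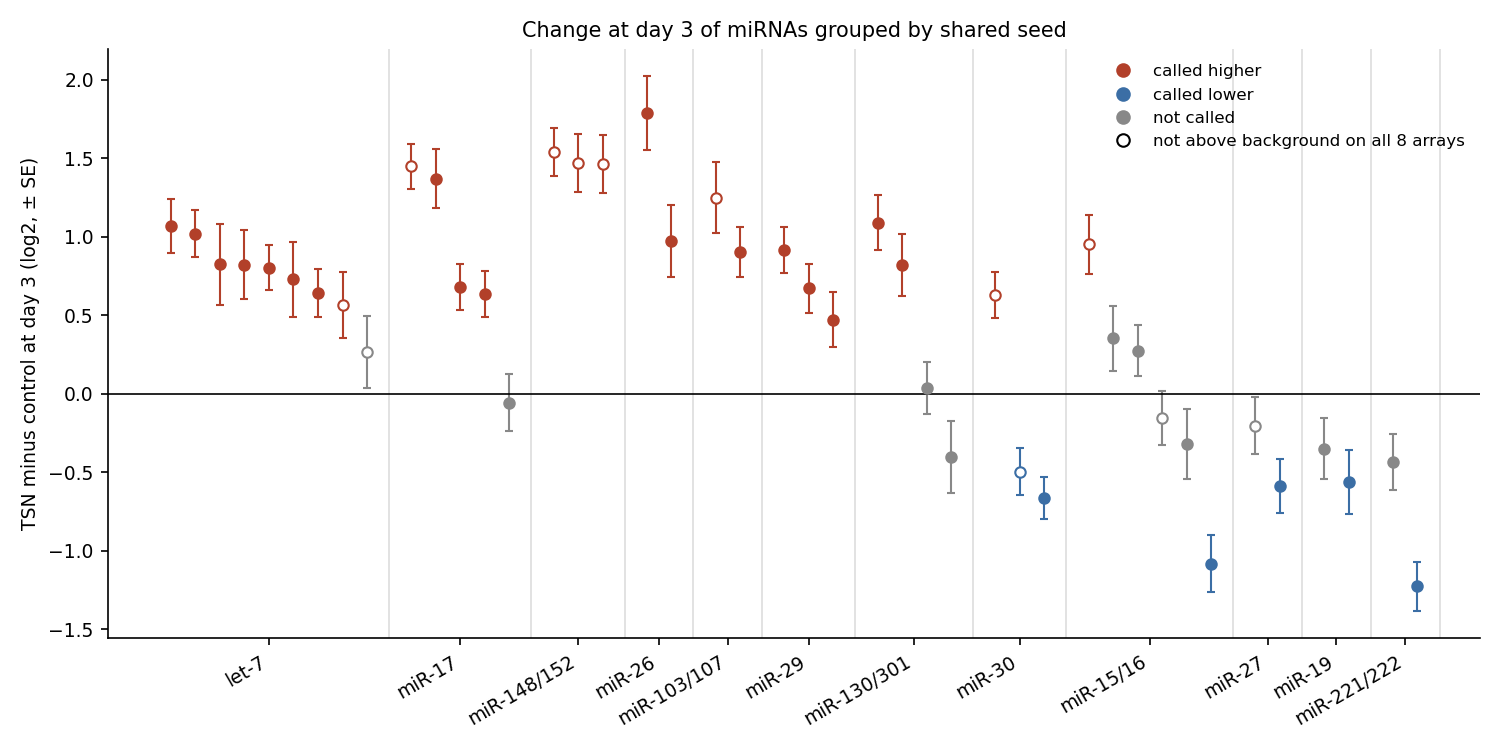
Change at day 3 (TSN minus control, log2, with the SE as bar) of miRNAs that share a seed, from left to right by family; open points were not above background on all 8 arrays. The let-7, miR-148, miR-26, miR-103 and miR-29 groups lie above 0 throughout, while the miR-30, miR-15 and miR-130 groups hold members on both sides.

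Of 7 tested liver-enriched miRNAs, miR-148a-3p was higher, miR-22-3p lower and the median was 0.04, beside 29.1% higher and 18.5% lower of all tested miRNAs. miR-122-5p had -3.44, -3.62, -1.59 and -3.91 on TSN arrays and -2.89, -4.16, -3.03 and -2.49 on control arrays, a difference of 0.00 ± 0.807, adjusted p = 1. TSN replicate 3 stood well above the other TSN arrays, which lay within the range of the controls. miR-192-5p had -1.80, -2.13, -1.20 and -2.16 on TSN arrays and -1.82, -2.41, -2.28 and -2.25 on control arrays (0.37 ± 0.503, adjusted p = 0.609), also highest in TSN replicate 3. miR-193a-3p was not called.

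Among red cell miRNAs, miR-451a, which is processed without Dicer and is the leading miRNA of erythrocytes, had 5.11, 5.07, 4.59 and 5.36 on TSN arrays and 4.69, 5.22, 5.59 and 4.92 on control arrays (-0.07 ± 0.234, adjusted p = 0.871), and the groups overlapped. miR-144-3p, from the same transcript, rose by 0.65 ± 0.242, adjusted p = 0.0325 and lost its call without TSN replicate 1, 2 or 4 or control replicate 1 or 4. miR-486a-5p fell by 0.63 (SE 0.216, adjusted p = 0.0196), a call lost without TSN replicate 2 or 3, and read 0.16 with normexp background correction, relative to the median miRNA. miR-486a-3p had -4.99, -5.29, -5.56 and -4.96 on TSN arrays and -3.33, -3.23, -3.38 and -3.68 on control arrays (-1.79 ± 0.218, adjusted p = 1.1e-06), and miR-486b-3p changed likewise (-1.68 ± 0.197, adjusted p = 8.11e-07). In this list 1 of 6 was higher and 3 lower, with a median of -0.53; all 6 were measured on all 8 arrays, where 26.2% of the 183 were higher and 27.9% lower.

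Of 6 platelet miRNAs, miR-26a-5p and miR-21a-5p were higher and none lower (median 0.18; 29.1% of all tested miRNAs were higher), the second with the changes of sign given above; miR-223-3p (0.03 ± 0.175, adjusted p = 0.955), miR-126a-3p (-0.06 ± 0.184, adjusted p = 0.861) and miR-191-5p (adjusted p = 0.4) did not pass. Of 7 leukocyte miRNAs 2 were higher and 2 lower (median 0.03), shares near the 29.1% and 18.5% of all tested miRNAs. miR-142a-5p rose by 1.08 ± 0.174, adjusted p = 3.45e-05, with 3 control arrays above background, and miR-142a-3p of the same hairpin did not pass (0.52 ± 0.288, adjusted p = 0.162) although its groups were apart. miR-150-5p of mature lymphocytes had -6.05, -6.13, -5.47 and -6.12 on TSN arrays and -4.32, -4.94, -4.51 and -4.73 on control arrays (-1.32 ± 0.272, adjusted p = 0.000435), with 2 control arrays above background. miR-146a-5p, a brake on NF-kB signalling, fell by 0.68 (SE 0.201, adjusted p = 0.00861), while the hypoxia-induced miR-210-3p was at least 1.08-fold higher (adjusted p = 8.29e-09); in the inflammation and hypoxia list 2 of 4 were higher and 1 lower. In bulk serum, fewer vesicles from a cell type and less of a miRNA per vesicle cannot be told apart.

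Of 8 vascular miRNAs none was higher and 2 lower, beside 29.1% and 18.5% of all tested miRNAs. They were miR-222-3p and miR-126a-5p (adjusted p = 0.0182); the second was above background on 4 TSN arrays and no control array, so its sign has no measured size, and its call was lost without TSN replicate 1 or control replicate 1 or 2. Muscle miRNAs were dim. For miR-133b-3p the bound was 1.38-fold higher (adjusted p = 0.0439), and miR-378a-3p rose by 1.29 ± 0.479, adjusted p = 0.0325, with 2 control arrays above background, while miR-1a-3p (adjusted p = 0.858) and miR-133a-3p (adjusted p = 0.41) did not pass. Without TSN replicate 1 or 3 or any 1 control array miR-133b-3p did not pass, nor did it with the replicate number as a block; miR-378a-3p lost its call without TSN replicate 3 or 4 or control replicate 2 or 3. Among brain miRNAs, miR-128-3p (0.96 ± 0.207, adjusted p = 0.000687) and miR-219a-5p (adjusted p = 0.000549) were 2 of 3 called, both higher, the second with no control array above background. Of epithelial miRNAs neither miR-203-3p (adjusted p = 0.402) nor miR-215-5p (-0.05 ± 0.206, adjusted p = 0.931) passed. The pancreatic list had miR-7a-5p alone, called lower (adjusted p = 0.00498) but above background on 2 TSN arrays and no control array, so that its direction is of signals near background. miR-212-3p, the 1 tested member of its list, from a cluster that responds to neuronal activity, rose by 2.05 ± 0.19, adjusted p = 6.58e-08 with 1 control array above background.

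Differences between the arms of a hairpin were not tested. Of 27 hairpins with both arms tested, both arms were higher in 2 and lower in 3, the arms were called in opposite directions in 3, 1 arm was called in 14 and none in 5, beside 47.5% of all tested miRNAs called. For miR-23a, the 5p arm was at least 1.3-fold higher and the 3p arm rose by 0.86 ± 0.167, adjusted p = 0.000222. For miR-652, the 5p arm rose by 1.07 ± 0.215, adjusted p = 0.000349 and the 3p arm was at least 1.07-fold higher. Both fell for miR-140, miR-486a and miR-3620 (-2.28 and -3.09). They were opposite for miR-17 (3p arm -0.74 ± 0.254, adjusted p = 0.0204, a call lost without TSN replicate 1 or control replicate 2 or 3), miR-423 (5p arm -0.84 ± 0.187, adjusted p = 0.000839) and miR-7687 (3p arm -2.01 ± 0.482, adjusted p = 0.00165), in each of which the higher arm was above background on no control array. The lower arms miR-17-3p and miR-7687-3p were each above background on 2 control arrays. For miR-7687-3p every TSN array lay at the floor, with unscaled intensities of 5.06 to 7.27, against 7.91 to 9.33 on control arrays. Its fall is therefore one of signals near background. These higher arms changed sign in alternatives: miR-17-5p as given above, miR-423-3p to -1.54 with normexp background correction and -1.88 without scaling, and miR-7687-5p to -0.85 with normexp, the last 3 values relative to the median miRNA. Of the 7 tested miRNAs of the miR-23/27/24 clusters 2 were higher, both arms of miR-23a, and 1 lower, miR-27a-3p, by 0.59 (SE 0.17, adjusted p = 0.00698).

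miRNAs with high registry numbers, many of them annotated from deep sequencing alone, were counted in 4 blocks. In these blocks of rising registry number, beside 29.1% higher and 18.5% lower of all tested miRNAs, 10 of 34 tested were higher and 9 lower in the first, 12 of 41 and 4 in the next, 14 of 82 and 22 in the one after and 12 of 41 and 8 in the last. Their medians lay between -0.01 and 0.01. On the miRNAs measured on all 8 arrays the medians were -0.12, -0.03, -0.23 and -0.02, and in the third block 4 of 35 were higher and 14 lower, beside 26.2% and 27.9% of the 183. By block, the smallest adjusted p belonged to miR-3968 (at least 1.7-fold higher) and miR-3620-5p, to miR-5103 (higher, with no control array above background) and miR-5100, to miR-6957-5p and miR-6990-5p (higher, no control array), and to miR-7668-3p (2.89 ± 0.222, adjusted p = 8.29e-09, 1 control array) and miR-8113. Of 3 tested mirtrons, none was higher and 2 lower (miR-1224-5p and miR-702-3p). Of 5 tested Dlk1-Dio3 miRNAs 1 was higher, miR-494-3p, and 1 lower, miR-300-5p.

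Sequence composition is given as a description, with no test. RefSeq gave a mature sequence for 373 of the 444 tested miRNAs. Over these the median G+C content was 53.4% for higher, 56.8% for lower and 56.5% for uncalled miRNAs, and the letters GGAG, which have been described in miRNAs sorted to exosomes, occurred on the mature strand in 23.6%, 28.6% and 35.8% of them. On those measured on all 8 arrays, the median G+C content was 47.6% for 43 higher, 56.5% for 43 lower and 59.1% for 75 uncalled miRNAs. GGAG occurred in 23.3% of the higher, 34.9% of the lower and 52% of the uncalled miRNAs, beside 39.8% of all 161 with a sequence. CCCU occurred in 2 of the 43 higher, 4 of the 43 lower and 1 of the 75 uncalled miRNAs, and GGCU in 4, 11 and 8 of them. Across the 161 miRNAs, which share the same arrays, the change correlated with G+C content at r = -0.115 and rho = -0.192, a description only.

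The effect at day 3 was compared with those at days 9 and 21, each against its own controls. The TSN arrays of day 3 lay on another slide than those of days 9 and 21. The controls of day 21 lay on another slide than those of days 3 and 9. In these comparisons day and slide cannot be told apart. The day 3 effect differed from that at day 9 for 84 of 444 miRNAs (18.9%) and from that at day 21 for 58 (13.1%) in limma. Leaving out 1 array gave 72 to 94 for day 9 and 32 to 69 for day 21, with 32 without control replicate 1 and without control replicate 4. Of the 48 higher calls measured on all 8 arrays, 32 were also called higher at day 9 and 21 at day 21. Of the 51 lower calls, 44 were lower at day 9 and 42 at day 21. Among all 444 tested miRNAs, 121 were called higher at day 9 and 103 at day 21. Lower calls among the 444 numbered 96 at day 21 and exceeded the higher calls at day 9. On both days the TSN arrays were again the brighter ones. Their 75th percentiles of unscaled signal were 1085 to 1748, against 73.5 to 609 on the control arrays. How far this brightness gap contributes to the shared calls was not tested. miR-106b-5p was higher at each time, by 1.37 at day 3, 2.37 at day 9 and 1.05 at day 21, and day 3 minus day 9 was -1.002 ± 0.267, adjusted p = 0.012. Its neighbour miR-93-5p changed by -0.06, 1.08 and -0.19 at the same days (day 3 minus day 9, -1.13 ± 0.256, adjusted p = 0.00428). The rises of miR-26a-5p (1.79, -0.24 and 0.42 at days 3, 9 and 21; day 3 minus day 9, 2.03 ± 0.332, adjusted p = 0.000375) and let-7a-5p (0.73, -0.40 and -0.08; 1.13 ± 0.339, adjusted p = 0.0233) were larger at day 3 than at day 9. miR-16-5p fell at day 3 and at day 21 (-1.08, -0.03 and -1.33; day 3 minus day 9, -1.05 ± 0.256, adjusted p = 0.00628). miR-486a-5p changed sign between the days (-0.63, 1.28 and -0.48; -1.92 ± 0.305, adjusted p = 0.000293).

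**Figure D4:**
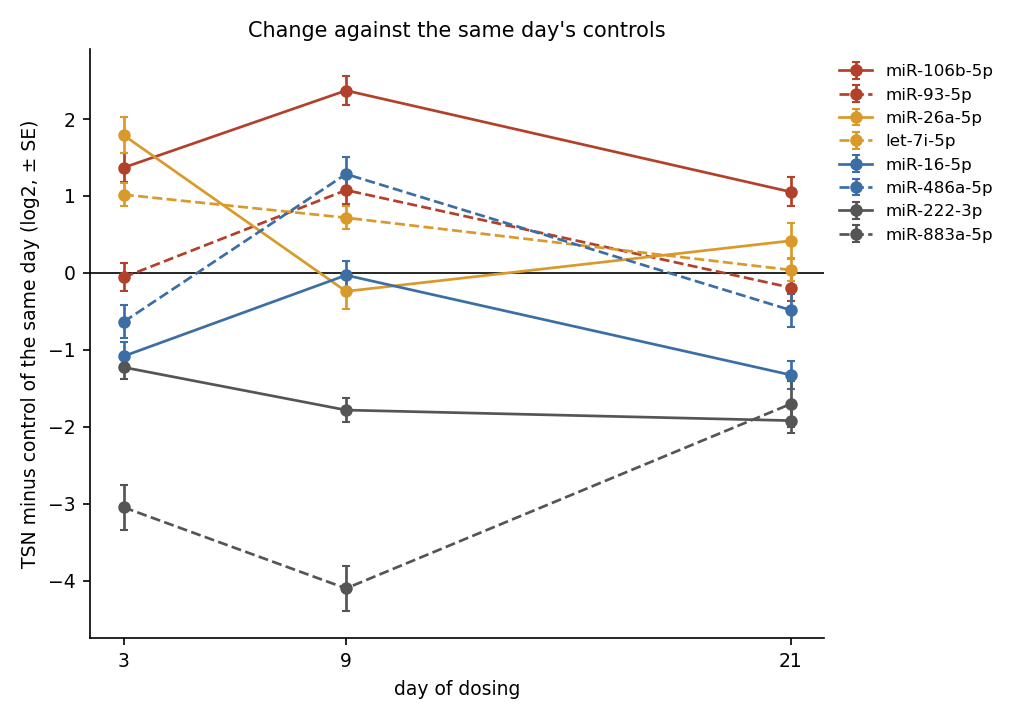
Change against the controls of the same day (TSN minus control, log2, with the SE as bar) at days 3, 9 and 21 for 8 miRNAs. miR-106b-5p is above 0 at each day and highest at day 9, miR-26a-5p is highest at day 3, and miR-222-3p and miR-883a-5p are below 0 at each day.

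The controls of days 3 and 9 lay on the same slide. Between them, day 9 against day 3, 62 of 444 miRNAs (14%) were called. Taken as the reference for TSN day 3, the controls of day 9 gave 123 higher and 104 lower calls. Between the control days miR-106b-5p (0.11, adjusted p = 0.819), miR-6354 (-0.22, adjusted p = 0.651) and miR-5100 (-0.01, adjusted p = 1) did not pass. miR-222-3p was higher in the controls at day 9 than at day 3 (0.83, adjusted p = 0.00251), as was miR-26a-5p (0.85, adjusted p = 0.0252).

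**Figure D5:**
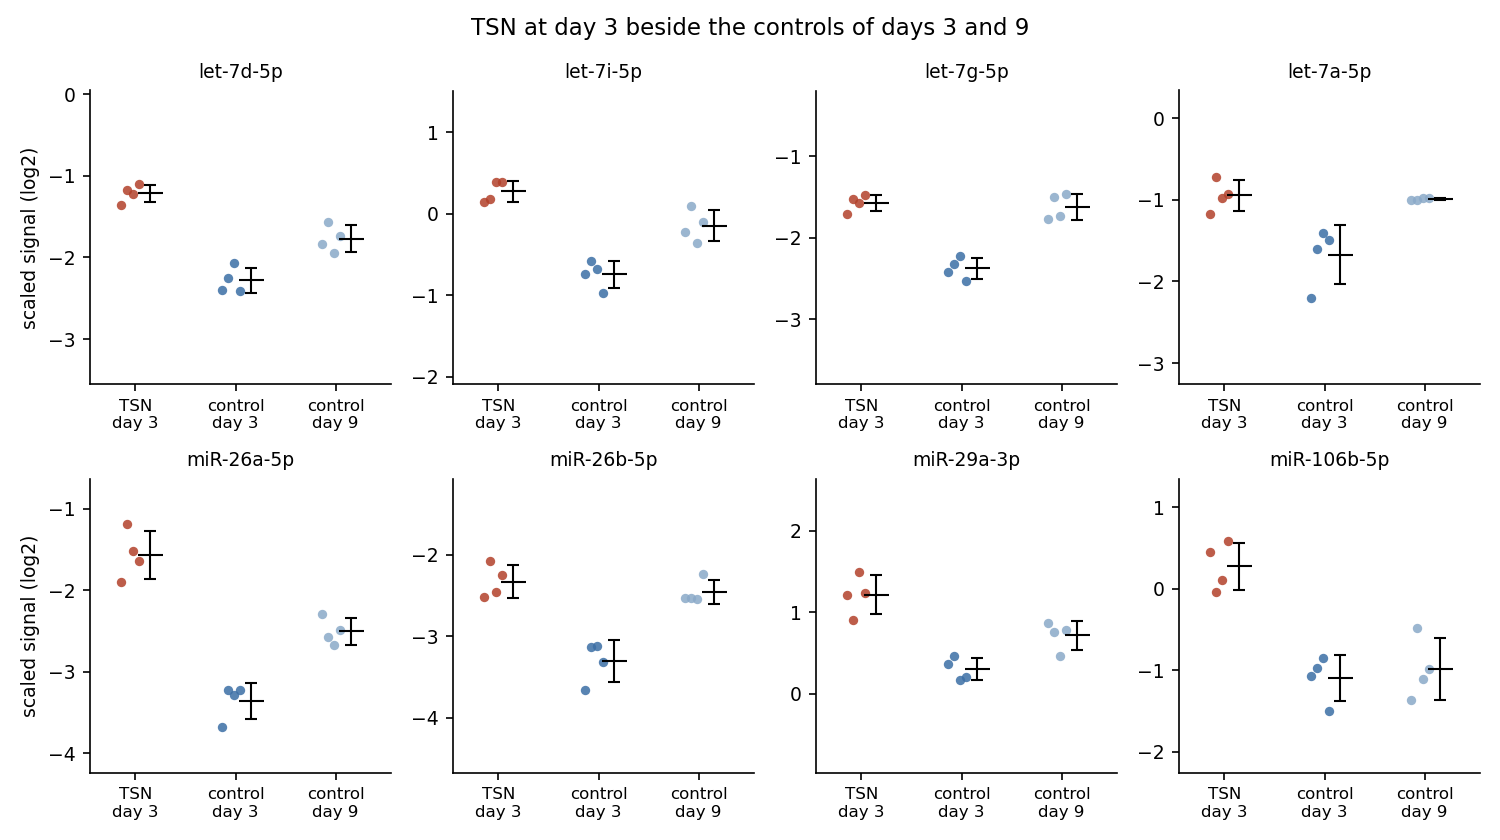
Scaled signal (log2, vertical axis) of 8 miRNAs on the TSN arrays of day 3 and the control arrays of days 3 and 9; each point is 1 array and the bar is the mean with its SD. For miR-106b-5p, let-7d-5p, let-7i-5p, miR-26a-5p and miR-29a-3p the TSN arrays lie above both sets of controls, and for let-7a-5p, let-7g-5p and miR-26b-5p they overlap the controls of day 9.

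The authors' processed values of the same 8 arrays correlated with the scaled values at 0.970 to 0.981. On the 183 miRNAs measured on all 8 arrays they gave 43 higher and 53 lower calls in the same fit, of which 87 were called the same way from the scanner values. Of 97 called miRNAs given here with values, 24 kept their direction and call in every alternative setting when the settings that moved the median miRNA by over 0.1 were read relative to it. The 97 leave out miR-18a-5p, miR-92a-3p, miR-19a-3p and miR-27a-3p, which were not read in the alternatives. Of these 24, 7 were higher: miR-6354, miR-5100, miR-26a-5p, miR-494-3p, miR-106b-5p, miR-6931-5p and miR-130b-3p. The 17 lower ones include miR-222-3p, miR-22-3p, miR-140-5p, miR-882 and miR-883a-5p. They also include miR-7085-3p, miR-7241-5p, miR-7055-3p and miR-702-3p, above background on no TSN array, and miR-7687-3p, above on some arrays only. Of the 24, 19 were measured on all 8 arrays. Another 41 changed sign in at least 1 alternative, read in the same way, of which 8 were measured on all 8 arrays: miR-6238, miR-300-5p, miR-21a-5p, miR-26b-5p, miR-1224-5p, let-7c-5p, miR-29c-3p and miR-486a-5p.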

How the data were processed

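Serum exosome RNA of 24 samples was hybridised to one-colour Agilent mouse miRNA arrays. The authors' scanner files, made with Agilent Feature Extraction 10.7.1.1 per the file headers, give a background-subtracted intensity for each of 58594 spots, 56430 of them not controls, for 4415 probes and 1881 miRNAs; the genome build was not given in the sources used here. The authors' deposited series table holds log2 values whose scaling and centring are not stated. Its column medians over the 24 arrays were 4.37 to 4.40, and it was used as an alternative.

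From the scanner intensities, spots flagged as outliers were dropped and the rest averaged per probe. Scaling divided each array by the 75th percentile of the 261 probes well above background (on over 0.5 of their spots) on all 24 arrays, floored at 0.0135 and put on the log2 scale. A miRNA took its brightest probe, and was tested if any group had it well above background throughout. limma 3.58.1 (R 4.3.3) fitted 6 group means over 24 arrays, with Benjamini-Hochberg adjustment over 444 miRNAs at 0.05. The number of arrays limits the precision, and no spot was saturated (0). Detection limits are those of dim arrays: control arrays had 196 to 277 miRNAs above background and TSN arrays 379 to 461.

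miRNAs were named by rule: miR-106b-5p, the 10 highest and 10 lowest calls measured on all 8 arrays with groups apart, the 8 largest bounds, tested members of seed groups of 3 or more, both arms of hairpins and the 2 smallest adjusted p per list, beside cell markers. Other cluster or family members were named with their values known. The members and lists were chosen with earlier results of these data known. Alternatives were other scalings, background corrections, filters, references and left-out arrays. Replicate numbers did not pair the samples. On simulated data the calls included more false ones than the threshold allows unless read relative to the median miRNA, a reading given beside the counts. Sequences came from RefSeq (GRCm38.p6), which matched 1608 of 1881 miRNAs.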

Additional observations from a re-analysis of the deposited data

Results flagged for a closer look

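In groups of 4 arrays, the gap of the highest or lowest array to the nearest other was compared with the whole range of the group (Dixon, 95%), a test that chance passes in about 1 in 20 groups. All 121 miRNAs given with values were screened in both groups of day 3, with no adjustment for their number. Chance alone would thus pass several, and which of those listed are such was not tested. The values are scaled log2 signals. miR-3620-3p stood at -5.78 in TSN replicate 2, beside -6.21 to -6.18 on the other 3 arrays, and miR-6978-5p stood at -2.78 in TSN replicate 1, beside -1.93 to -1.77 on the other 3 arrays. miR-150-5p stood at -5.47 in TSN replicate 3, beside -6.13 to -6.05 on the other 3 arrays, and miR-8119 stood at -4.43 in TSN replicate 3, beside -4.01 to -3.98 on the other 3 arrays. miR-7687-5p stood at -3.39 in TSN replicate 3, beside -4.26 to -4.12 on the other 3 arrays, and miR-191-5p stood at -5.59 in TSN replicate 3, beside -6.21 to -6.18 on the other 3 arrays. miR-1a-3p stood at -5.63 in TSN replicate 4, beside -5.05 to -4.95 on the other 3 arrays. miR-26a-5p stood at -3.68 in control replicate 1, beside -3.28 to -3.23 on the other 3 arrays, and miR-486b-3p stood at -3.85 in control replicate 4, beside -3.50 to -3.44 on the other 3 arrays. miR-222-3p stood at -2.47 in control replicate 2, beside -3.10 to -3.03 on the other 3 arrays, and miR-29b-3p stood at -1.28 in control replicate 2, beside -1.49 to -1.49 on the other 3 arrays. miR-203-3p stood at -5.40 in control replicate 1, beside -6.21 to -6.09 on the other 3 arrays, and miR-5103 stood at -6.13 in control replicate 4, beside -6.21 to -6.21 on the other 3 arrays. miR-497a-5p stood at -4.16 in control replicate 4, beside -3.51 to -3.50 on the other 3 arrays, and miR-486a-5p stood at 1.64 in control replicate 4, beside 1.94 to 1.97 on the other 3 arrays. On 2 other TSN arrays of miR-3620-3p and of miR-191-5p, 3 other control arrays of miR-5103 and 1 of miR-203-3p the value is the floor, so for these 4 the small spread of the others follows at least in part from the floor, and the test says nothing of a measured outlier.

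The effect of TSN at day 3 differed from that at day 9 for several miRNAs in a test of the difference itself (limma, adjusted over all 444 miRNAs), given as the day 3 effect minus the day 9 effect on the log2 scale. The TSN arrays of these days lay on different slides, so day and slide cannot be told apart. The day 3 effect was higher for miR-142a-3p (2.05), miR-26a-5p (2.03), let-7e-5p (1.86), miR-6402 (1.65), miR-1198-5p (1.60) and miR-125b-5p (1.40), with adjusted p from 0.000293 to 0.0157. Next came miR-5100 (1.36), let-7f-5p (1.32), miR-26b-5p (1.27), miR-652-3p (1.26), miR-181d-5p (1.25) and miR-103-3p (1.16), with adjusted p from 0.00109 to 0.0142. After these followed let-7a-5p (1.13), let-7c-5p (1.12), miR-721 (1.104), miR-21a-5p (1.01), miR-322-5p (0.96) and miR-669f-3p (0.85), with adjusted p from 0.011 to 0.0334. Smaller positive differences belonged to miR-142a-5p (0.84), miR-126a-3p (0.75) and miR-423-3p (0.31), with adjusted p from 0.0204 to 0.0495. It was lower for miR-133b-3p (-4.70), miR-133a-3p (-3.97), miR-1a-3p (-2.62), miR-486a-5p (-1.92), miR-6931-5p (-1.37) and miR-486b-3p (-1.17), with adjusted p from 0.000293 to 0.0205. Smaller negative differences belonged to miR-486a-3p (-1.16), miR-93-5p (-1.13), miR-16-5p (-1.05), miR-106b-5p (-1.002), miR-15a-5p (-0.96) and miR-140-3p (-0.85), with adjusted p from 0.000449 to 0.0233. The smallest negative ones belonged to miR-30a-5p (-0.79) and miR-5103 (-0.61), with adjusted p from 1.94e-05 to 0.0059.

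The effect of TSN at day 3 differed from that at day 21 for several miRNAs in a test of the difference itself (limma, adjusted over all 444 miRNAs), given as the day 3 effect minus the day 21 effect on the log2 scale. Both the TSN and the control arrays of these days lay on different slides, so day and slide cannot be told apart. The day 3 effect was higher for miR-669f-3p (1.65), miR-142a-3p (1.45), miR-26a-5p (1.37), miR-128-3p (1.36), miR-130a-3p (1.31) and miR-142a-5p (1.23), with adjusted p from 0.00332 to 0.0248. Next came miR-130b-3p (1.16), miR-6238 (1.13), miR-223-3p (1.13), miR-21a-5p (1.12), miR-652-3p (1.12) and let-7e-5p (1.09), with adjusted p from 0.00909 to 0.0223. After these followed miR-322-5p (1.08), miR-26b-5p (1.04), miR-29b-3p (1.02), let-7i-5p (0.98), miR-23a-3p (0.95) and miR-148b-3p (0.94), with adjusted p from 0.00909 to 0.0424. Smaller positive differences belonged to miR-107-3p (0.93), miR-29a-3p (0.93), miR-301a-3p (0.92), miR-152-3p (0.88), miR-181d-5p (0.86) and let-7d-5p (0.74), with adjusted p from 0.00909 to 0.0497. The smallest positive ones belonged to miR-140-5p (0.70), miR-222-3p (0.69) and miR-210-3p (0.64), with adjusted p from 0.0248 to 0.0485. It was lower for miR-300-5p (-1.47), miR-3099-3p (-1.22), miR-6957-5p (-1.27), miR-882 (-1.32) and miR-883a-5p (-1.34), with adjusted p from 0.0308 to 0.0495. For miRNAs above background on no array of a group a difference is one of signals near background.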

How the results depend on the processing

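Of 1881 miRNAs 444 were tested, and counts depended most on how the brightness gap was scaled. Higher calls numbered 129 and lower calls 82. Read relative to the median of all tested miRNAs, as added after the data were seen, they numbered 112 and 104, and miR-21a-5p, miR-133b-3p, miR-181a-5p, let-7e-5p, miR-29c-3p and miR-144-3p lost their calls. With the percentile over all probes they were 188 and 34 (77 and 153 relative to the median miRNA); with labelling spike-ins 245 and 39 (96 and 117); without scaling 386 and 2 (23 and 205 relative to the median); with normexp background correction 23 and 351 (55 and 286 relative to the median); over the 183 miRNAs measured on all 8 arrays 48 and 52; and in the authors' values 219 higher. These scalings moved the median miRNA by 0.72 (all probes), 0.70 (spike-ins), 2.85 (none) and -0.51 (normexp). The differences from day 9 (84) and day 21 (58) fell to 17 and 6 without scaling. Leaving out 1 array gave 114 to 129 higher, 75 to 88 lower, 72 to 94 different from day 9 and 32 to 69 different from day 21. With the replicate number as a block, 127 were higher and 84 lower, and 77 and 40 differed from days 9 and 21. Among miRNAs read in the alternatives only miR-133b-3p then lost its call. Same-numbered arrays did not deviate together (r from -0.415 to 0.0987). Of the 97 called miRNAs given with values, with settings that moved the median miRNA by over 0.1 read relative to it, 24 kept their direction and call in every alternative, 41 changed sign in at least 1, and 32 lost the call without a change of sign; of the 54 measured on all 8 arrays, 8 changed sign. Of the 24, 19 were measured on all 8 arrays. The changes of sign follow. With normexp background correction, read relative to the median miRNA, miR-542-5p read -0.22, miR-1198-5p -0.46, miR-6402 -0.44, miR-142a-5p -0.12, miR-378a-3p -0.25, miR-133b-3p -0.73, miR-219a-5p -1.30, miR-17-5p -0.67, miR-322-5p -0.37, miR-23a-5p -0.71, miR-26b-5p -0.0061, miR-181a-5p -1.57, miR-103-3p -0.65, miR-212-3p -0.26, miR-210-3p -0.94, miR-669f-3p -0.56, miR-3968 -0.51, miR-5103 -1.42, miR-6990-5p -1.096, miR-8113 -0.86, let-7e-5p -1.45, miR-125b-5p -0.38, miR-148b-3p -0.19, miR-152-3p -1.08, miR-29c-3p -0.054, miR-30c-5p -0.47, miR-6394 -0.29, miR-486a-5p 0.16, miR-652-5p -0.61, miR-7687-5p -0.85, miR-423-3p -1.54 and miR-652-3p -0.99. With Agilent's total gene signal, miR-6238 read -0.013, miR-300-5p 0.83, miR-3475-5p 2.62, miR-7a-5p 2.32, miR-17-5p -1.56, miR-322-5p -0.059, miR-212-3p -0.52, miR-669f-3p -3.91, miR-30c-5p -2.82, miR-7057-5p 0.98 and miR-652-3p -1.14. Without scaling, relative to the median miRNA, miR-219a-5p read -1.04, miR-181a-5p -2.15, miR-210-3p -0.17, miR-5103 -1.40, miR-6990-5p -0.65, miR-8113 -0.11, let-7e-5p -1.34, miR-152-3p -0.51, miR-423-3p -1.88 and miR-652-3p -0.19. In the authors' values, miR-21a-5p read -0.047, miR-126a-5p 0.034, miR-7a-5p 0.046, miR-1224-5p 0.56 and miR-7057-5p 0.047. Against the controls of day 9, miR-21a-5p read -0.52, miR-669f-3p -0.016, let-7c-5p -0.011 and let-7e-5p -0.45. With the percentile over all probes, relative to the median miRNA, miR-181a-5p read -0.68, miR-5103 -0.047 and miR-423-3p -0.48. With labelling spike-ins, relative to the median miRNA, miR-181a-5p read -0.40 and miR-423-3p -0.15. With quantile normalization, miR-21a-5p read -0.18. The cause was not tested. Arm and slide cannot be told apart, and in the comparisons with days 9 and 21 neither can day and slide. The controls were dim, and whether a sample is 1 mouse or a pool is not stated.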
